A study of Homo sapiens with 9 samples.

Results

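The comparison described here is between SW1353 cells given PBSL before interleukin-1β (IL-1β) and SW1353 cells given IL-1β alone. SW1353 is an established human chondrosarcoma line that is widely used as a stand-in for chondrocytes. PBSL is a preparation of the larvae of Protaetia brevitarsis seulensis, a scarab beetle eaten and used in traditional medicine in East Asia. The series held 9 mRNA libraries in 3 groups of 3. The untreated group received neither agent. The IL-1β group received 20 ng/mL IL-1β for 20 h, and the PBSL group was pretreated with PBSL for 2 h and then given IL-1β in the same way. PBSL without IL-1β was not among the groups. The protocol lists PBSL at 0, 50, 100 and 200 µg/mL, and which of these was sequenced is not stated. Nothing states that the replicates were separate cultures. A p-value here therefore reflects only how far libraries spread within groups, pooled over all 3 groups, and that spread may be technical.

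A gene entered the comparison if 3 or more of the 9 libraries, whichever they were, had a value of 1 or more. This kept 11924 of the 19389 genes in the table. The deposited values, taken as normalised for transcript length and depth, are called expression values below. Fold changes are on a log2 scale after adding 1 to each value, PBSL minus IL-1β, which understates the change of low genes. The test was limma's moderated test over all 9 libraries, 2-sided, and a gene was called higher or lower at a Benjamini-Hochberg adjusted p under 0.05 over the 11924 genes. Of the tested genes, 11 passed the filter through the IL-1β libraries alone and 6 through the PBSL libraries alone. XAF1, IL23A and RUNX3 among the first and C5 among the second are on the gene lists used below and stay in their counts. Of the first, 9 were called lower and none higher, XAF1 and IL23A among the lower. Of the second, 3 were called higher and none lower. The filter itself favours these directions, so the calls of such genes are no support for a change.

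IL-1β binds a receptor at the cell surface that signals through MyD88 and IRAK kinases to NF-κB and to MAP kinases. In chondrocytes and in chondrosarcoma lines it is known for raising chemokines, interleukin-6, collagenases and stromelysins and for lowering cartilage matrix genes. Interferon-stimulated genes form a related second wave: interferons activate a transcription factor complex that includes IRF9 and binds a short element in the promoters of antiviral genes.

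Depth could not be read directly from normalised values. The sum of the values per library lay between 523758 and 553196, the steps of low values gave a relative depth between 0.925 and 1.13, and the share of the 10 highest genes was 9.54% to 10.8%. Genes that define macrophages, lymphocytes, endothelium, epithelium, fat and skeletal muscle were mostly below the filter: 9 of 39 such markers were tested. The expression values of the endothelial markers summed to at most 1.33 in any IL-1β or PBSL library. Mesenchymal markers were high, with a summed value of 3978 to 4159 in these 6 libraries. COL2A1, the collagen of hyaline cartilage, reached at most 0.027, so the line lacked this defining chondrocyte gene.

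PBSL 1 stood between the IL-1β libraries and the other PBSL libraries. The root-mean-square log2 distance between IL-1β libraries was 0.129 to 0.138 over the tested genes. PBSL 1 lay 0.18 to 0.185 from the IL-1β libraries, PBSL 2 lay 0.299 to 0.304 from them, and PBSL 3 lay 0.288 to 0.299. The distance of PBSL 1 was 0.219 to PBSL 2 and 0.221 to PBSL 3, while PBSL 2 and PBSL 3 were 0.197 apart. For this reason each PBSL library is given apart in what follows, and counts and some fold changes are also given without PBSL 1. The differences of all PBSL libraries are taken from the same IL-1β libraries and are therefore not independent of each other.

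With PBSL before IL-1β, interferon-stimulated genes, collagens, contractile genes and amino-acid response genes were lower than with IL-1β alone, and genes of DNA replication and mitosis were higher. In all, 2684 genes (22.5% of those tested) were called, 1370 higher (11.5%) and 1314 lower (11%). At an unadjusted p under 0.05 there were 4360 genes. Most changes were small: the median size was a log2 change of 0.31 among the higher genes and 0.34 among the lower genes. A change of at least 0.5 was found in 153 higher and 258 lower genes. No called gene rose by 1 log2 unit or more, and 18 called genes fell by at least that much. Both thresholds moved with single libraries. Past 0.5 there were 333 higher and 451 lower without PBSL 1, 74 and 162 without PBSL 2, and 100 higher without PBSL 3. Past 1 there were 5 higher and 34 lower without PBSL 1, 1 and 9 without PBSL 2, and 1 higher without IL-1β 1. The groups did not overlap in 4986 genes (41.8% of those tested). The count depended on single libraries. Without PBSL 1 it was 3904 (32.7%), with 2019 higher (16.9%) and 1885 lower (15.8%). It was 1436 without PBSL 2, 1448 without IL-1β 1, 1314 without IL-1β 2 and 1360 without IL-1β 3. Of the 2684 genes, 1048 were called in each of the 9 fits that left out 1 library, 516 higher and 532 lower.

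**Figure D1:**
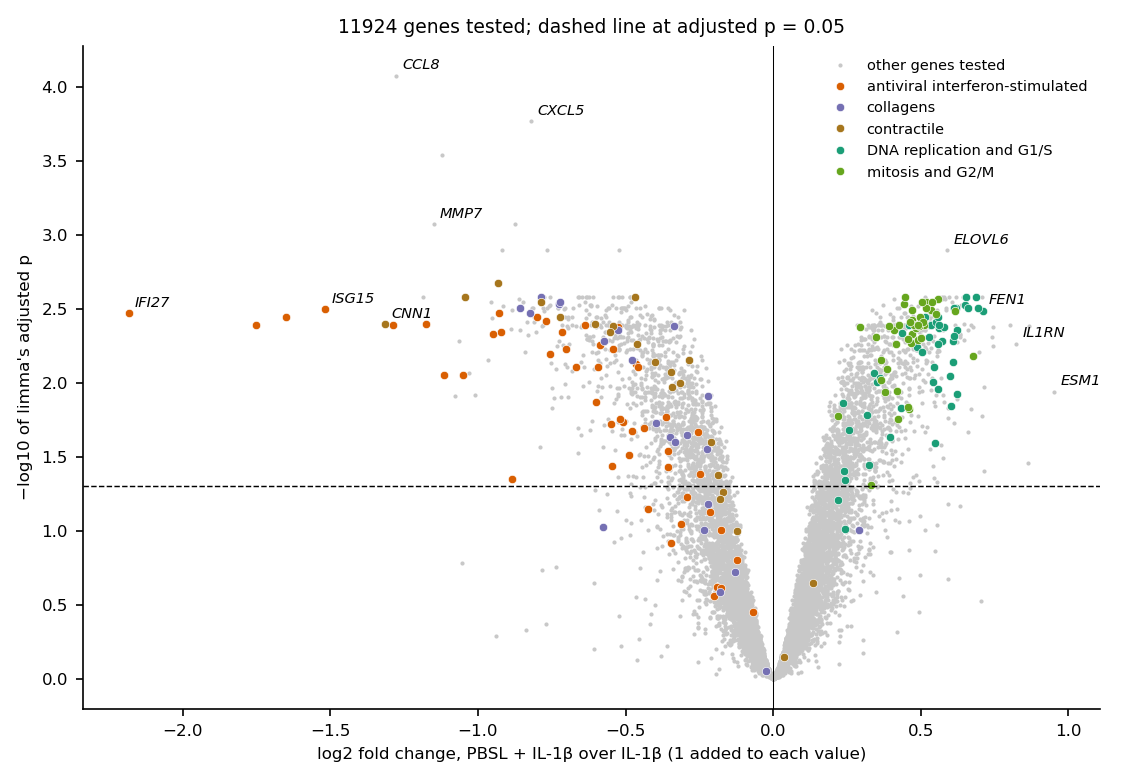
Each point is 1 of the 11924 tested genes, with the log2 fold change of PBSL against IL-1β on the x axis and minus log10 of the adjusted p on the y axis, and members of 5 gene lists in colour. Antiviral genes reach a log2 change of -2.18 on the left, and the DNA replication genes lie to the right of 0, where no called gene rose by 1 or more.

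The direction of the calls varied with gene length and with expression level. Among the fifth of tested genes with the longest exonic sequence, 145 were higher and 294 lower, and among the fifth with the shortest, 349 were higher and 250 lower. In the fifth with the lowest mean expression, 94 were higher and 239 lower. The part of length and level in the results below was not tested.

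The called genes lay on the same side in nearly all cases in each PBSL library, with the smallest differences in PBSL 1. In PBSL 1, 68.4% of the tested genes lay outside the range of the 3 IL-1β libraries, against 80.1% in PBSL 2 and 80.9% in PBSL 3. The median size of the log2 difference from the IL-1β mean was 0.092 in PBSL 1, 0.16 in PBSL 2 and 0.17 in PBSL 3. Differences of 0.5 or more upward numbered 28 in PBSL 1, 392 in PBSL 2 and 393 in PBSL 3, and downward 87, 532 and 503. Of the 1370 genes called higher, 1349 had all 3 PBSL libraries above the IL-1β range, and of the 1314 called lower, 1300 had all 3 below it. PBSL 1 alone was inside that range in 20 genes called higher and in 14 called lower, and it lay on the other side in none. These genes were called with the same libraries, PBSL 1 included. Such agreement is therefore largely built into the calls and is no separate support for them.

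As a description of the called genes, the difference of PBSL 1 was expressed as a percentage of the mean difference of PBSL 2 and PBSL 3. The median over the 2684 genes was 52.4%, with quartiles of 40.3% and 68.4%, and it was 52.7% in the higher and 52% in the lower genes. The called members of the lists described below had a median of 39.8% in the heat shock list, 41.9% in the contractile list, 42.1% in the antiviral list and 44% in the ATF4 list. It was 49.5% in the G1/S list, 55.6% in the mitotic list and 73.4% in the TGF-β and BMP list. In 391 genes PBSL 1 reached at least 80% of the difference of the other PBSL libraries. These included CCL8 at 95.6% and ID2 at 105%.

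**Figure D2:**
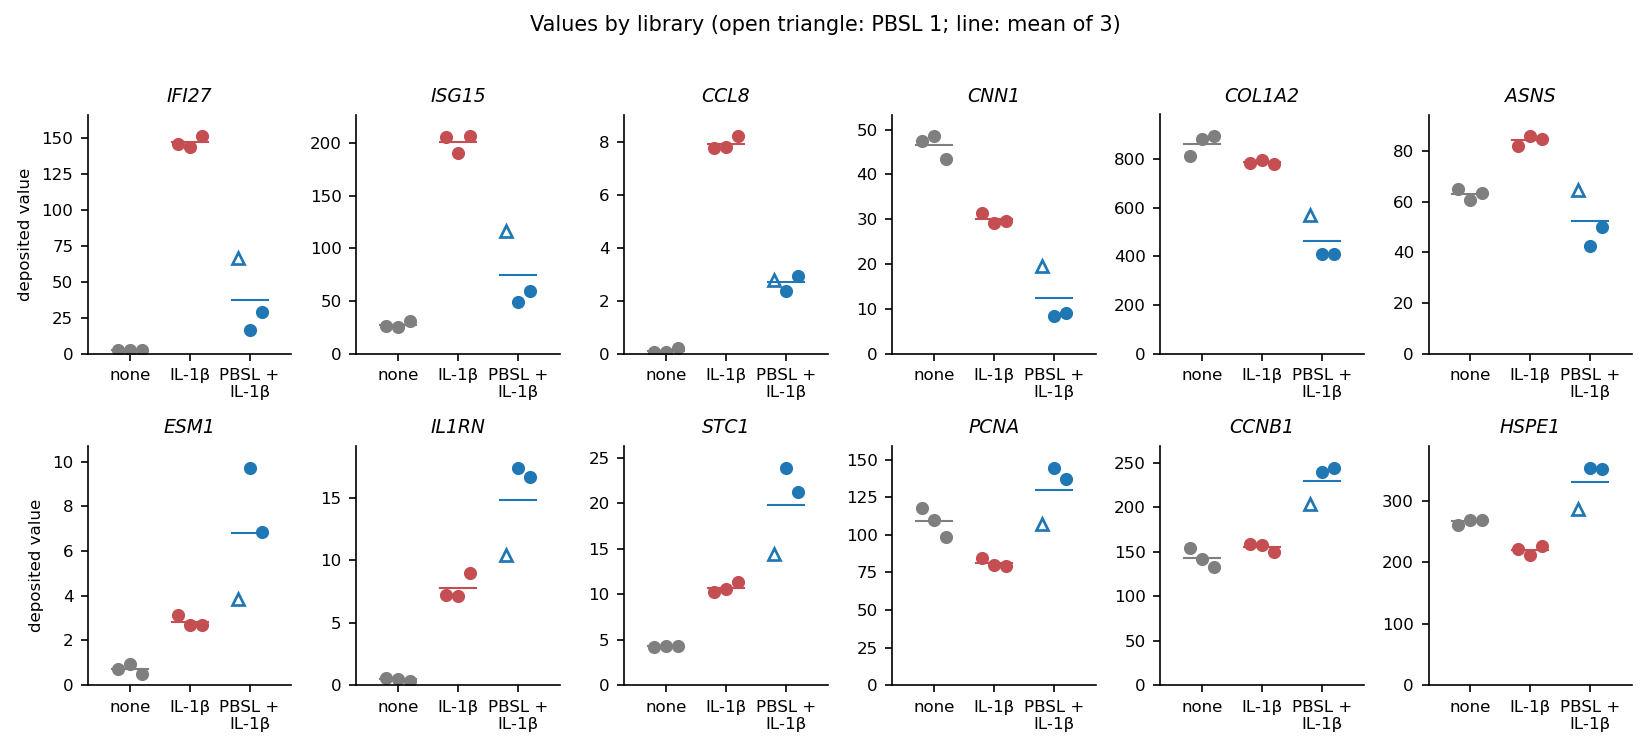
Expression values of 12 genes in each untreated, IL-1β and PBSL library, 1 panel a gene and each with its own linear axis from 0, where a point is a library, the open triangle is PBSL 1 and the line is the group mean. In most panels PBSL 1 lies between the IL-1β libraries and the other PBSL libraries, as in IFI27 with 66.5, 16.2 and 28.7 in PBSL 1, 2 and 3, while in CCL8 it lies beside them with 2.78, 2.36 and 2.92.

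Genes that interferon switches on were lower with PBSL before IL-1β. Of 52 listed antiviral genes 50 were tested, 39 were lower and none was higher, against 11% lower among all tested genes. The 39 include XAF1, which passed the filter through the IL-1β libraries alone. The median log2 change of the 50 genes was -0.54, against 0.0079 over all tested genes. The median difference was -0.29 in PBSL 1, -0.80 in PBSL 2 and -0.59 in PBSL 3, and without PBSL 1 the list had 43 lower genes. In such bulk libraries, fewer cells of a kind and less RNA per cell cannot be told apart.

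The largest fall of any called gene was in IFI27, a small mitochondrial protein induced by type I interferon, which lies on chromosome 14 from 94104836 to 94116698 (hg38). Its expression values were 146, 144 and 151 in IL-1β 1, 2 and 3 and 66.5, 16.2 and 28.7 in PBSL 1, 2 and 3, against 2.73, 2.48 and 2.58 untreated. The groups did not overlap, PBSL 2 was lowest and PBSL 1 highest of the PBSL libraries, and all stayed above the untreated level. IFI27 fell with a log2 change of -2.18 (SE 0.34, adjusted p = 0.00337), or -2.71 without PBSL 1. ISG15 is an interferon-induced, ubiquitin-like protein that is conjugated to other proteins. It read 206, 190.3 and 207 in the IL-1β libraries and 116, 48.6 and 59.4 in the PBSL libraries. It lies on chromosome 1 from 1001138 to 1014540 and had a log2 change of -1.52 (SE 0.23, adjusted p = 0.00315). Again PBSL 2 was lowest and PBSL 1 nearest to IL-1β.

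The transmembrane restriction factor IFITM1, which blocks virus entry, read 73.7, 63.6 and 68.6 with IL-1β and 35.4, 11.3 and 18.5 with PBSL, against 2.73, 2.93 and 4.93 untreated. Its log2 change was -1.75 (SE 0.30, adjusted p = 0.00405), and the groups did not overlap. IFI6, a mitochondrial survival protein on chromosome 1 from 27666061 to 27672218, read 758, 608 and 636 with IL-1β and 406, 173 and 284 with PBSL, a change of -1.29 (adjusted p = 0.00405). OAS2, which makes the second messenger that activates RNase L, read 27.6, 24.8 and 27.8 with IL-1β and 19.3, 6.996 and 11.9 with PBSL (log2 change -1.12, adjusted p = 0.00887). IFIT1, which binds viral RNA by its cap, read 57.1, 54.5 and 66.2 with IL-1β and 44.3, 17.7 and 27.6 with PBSL (log2 change -1.05, adjusted p = 0.00885). In both genes PBSL 1 was the PBSL library nearest to the IL-1β range and under it, at 30.9% and 29.6% of the difference of the other PBSL libraries. BST2, which tethers budding virus, had a log2 change of -1.65, and MX2, a dynamin-like antiviral protein, one of -1.18.

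Promoter stretches of 4 of these genes are shown because they hold matches to the element through which interferons act. The list was made of genes known to respond to interferon. A high share of matches therefore belongs to the list whatever PBSL did, and is no support for a change. The interferon-stimulated response element was searched as GAAA, 2 bases of any kind and GAAA, on both strands in the 250 bases before the RefSeq start of each gene (GRCh38.p14), with overlapping matches counted. Of the 37 antiviral genes that had a RefSeq promoter, 20 (54.1%) held a match, against 839 of 27305 promoters (3.07%) and 227 of 9518 tested genes with a promoter (2.38%). The share was 5.29% among the genes called lower (54 of 1021) and 1.89% among those called higher (21 of 1112). In the sequences below, on the strand of the gene and 5′ to 3′, capitals mark the matches. A match is a description of the letters and no measurement of binding.
ISG15, chr1:1013364-1013419, plus strand: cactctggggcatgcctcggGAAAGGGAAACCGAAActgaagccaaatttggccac
IFI27, chr14:94110608-94110670, plus strand: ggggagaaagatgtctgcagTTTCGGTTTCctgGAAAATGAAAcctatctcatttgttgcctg
IFIT1, chr10:89392487-89392549, plus strand: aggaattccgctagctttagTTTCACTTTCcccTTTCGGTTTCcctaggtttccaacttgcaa
BST2, chr19:17405725-17405780, minus strand: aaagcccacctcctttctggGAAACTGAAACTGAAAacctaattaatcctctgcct

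The signal carriers of the pathway formed a separate list. Of 20 listed STATs, IRFs, receptors and ligands 17 were tested, and 5 were lower and none higher, against 11% lower over all tested genes, with a median of -0.08. The lower count was 2 without IL-1β 1 and 3 without IL-1β 2, IL-1β 3 or PBSL 2. STAT2, a signal carrier of type I interferon, had a log2 change of -0.50 (adjusted p = 0.00419) and IRF9, the DNA-binding part of the complex, one of -0.46 (adjusted p = 0.0141). The IRF9 call was lost without IL-1β 1, at an adjusted p of 0.0546, which was the highest of its alternatives. IRF1, which NF-κB induces, did not pass the test, with 22.7, 22.9 and 24.2 in the IL-1β and 24.3, 22.8 and 25.3 in the PBSL libraries (log2 change 0.052, adjusted p = 0.569).

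Class I antigen presentation was lower as well. Of 21 listed genes 20 were tested, and 15 were lower and none higher, against 11% lower over all tested genes. The median log2 change was -0.35. The median difference was -0.19 in PBSL 1, -0.44 in PBSL 2 and -0.44 in PBSL 3. HLA-F, a non-classical class I gene, read 31.7, 30.8 and 31.8 with IL-1β and 23.4, 18.6 and 16.4 with PBSL (log2 change -0.68, SE 0.10, adjusted p = 0.00309). HLA-C, a classical class I gene, read 266, 267 and 257 with IL-1β and 207, 169.97 and 143 with PBSL (log2 change -0.62, adjusted p = 0.00403). PSME2, a subunit of the proteasome activator that interferon induces, read 212, 216 and 199 with IL-1β and 174, 149 and 149 with PBSL (log2 change -0.41, adjusted p = 0.00348). TAP1, which pumps peptides into the endoplasmic reticulum, had a log2 change of -0.51 (adjusted p = 0.00542). In HLA-F, HLA-C, PSME2 and TAP1 the groups did not overlap. How reads shared between the HLA genes were counted is not stated, so single HLA genes are uncertain. Matches to the same element lay in 7 of the 16 class I presentation genes with a RefSeq promoter (43.8%).

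The inflammatory genes that IL-1β is known for did not move as a block. Of 7 listed chemokines that attract neutrophils 5 were tested and 2 were lower, against 11% lower over all tested genes. CXCL5 read 52.01, 51.9 and 52.1 with IL-1β and 31.6, 27.3 and 28.4 with PBSL, a change of -0.82 (SE 0.063, adjusted p = 0.000169), and PBSL 1 lay close to PBSL 2 and 3. CXCL3 had a log2 change of -0.38 (adjusted p = 0.00437), a call that was lost with a pseudocount of 0.1 (adjusted p = 0.159, the highest of its alternatives). CXCL8, the most abundant member and a strong attractant of neutrophils, read 994, 1024 and 1044 with IL-1β and 1062, 1079.8 and 1108 with PBSL. The groups did not overlap, yet the change of 0.085 (SE 0.073) did not pass the test (adjusted p = 0.431).

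Of 15 other listed chemokines 11 were tested and 7 were lower, against 11% lower over all tested genes. The median of these chemokines was -0.45, and 4 were lower without IL-1β 1 or PBSL 2. CCL8, which attracts monocytes, read 7.76, 7.799 and 8.22 with IL-1β and 2.78, 2.36 and 2.92 with PBSL, against 0.048, 0.05 and 0.197 untreated. It had a log2 change of -1.28 (SE 0.087, adjusted p = 8.37e-05), had no overlap, and showed almost the full fall in PBSL 1. CCL5, which attracts T cells and monocytes, read 4.61, 4.08 and 4.54 with IL-1β and 2.54, 1.24 and 1.73 with PBSL (log2 change -0.95, adjusted p = 0.00366), with PBSL 2 lowest. CCL3, a macrophage inflammatory protein, had a log2 change of -0.52 (adjusted p = 0.00592) and CXCL16, a membrane-bound chemokine, one of -0.45 (adjusted p = 0.00601). CCL2, the main monocyte chemokine, did not pass the test, with 125, 128 and 122 in the IL-1β and 135, 128 and 154 in the PBSL libraries (log2 change 0.15, adjusted p = 0.157).

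**Figure D3:**
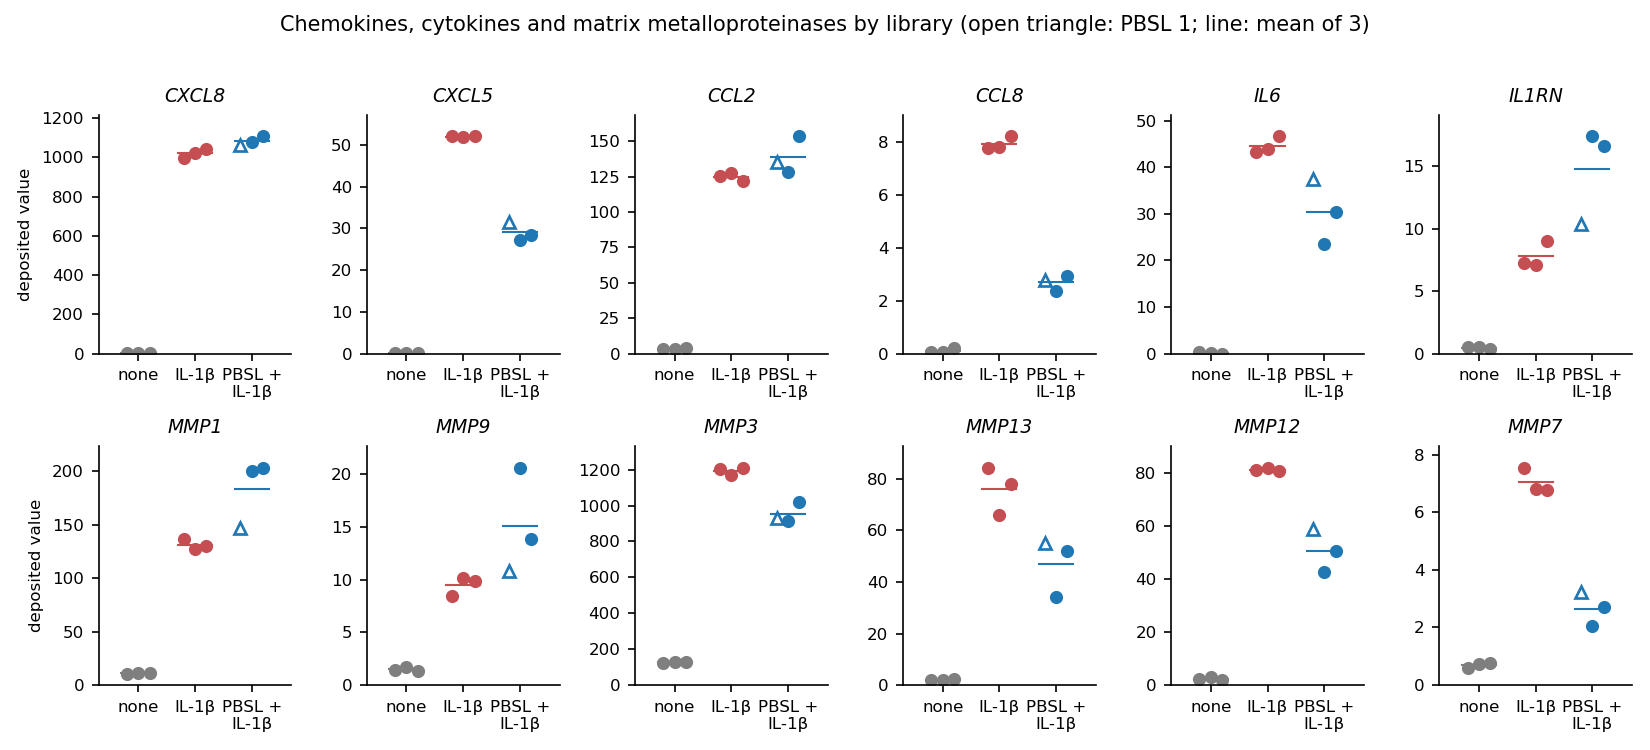
Expression values of 6 inflammatory genes (upper row) and 6 matrix metalloproteinases (lower row) by library, where a point is a library, the open triangle is PBSL 1, the line is the group mean and each linear axis starts at 0. CXCL8 lies between 994 and 1108 in these 6 libraries, CCL8 and MMP7 lie under them in every PBSL library, and MMP1 and IL1RN lie above them.

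Of 21 listed interleukins and related cytokines 15 were tested, and 2 were higher and 6 lower, against 11.5% and 11% of all tested genes. The lower count was 3 without IL-1β 2, IL-1β 3 or PBSL 2. The 6 include IL23A, which passed the filter through the IL-1β libraries alone. IL1RN, the natural antagonist of the IL-1 receptor, read 7.22, 7.13 and 8.996 with IL-1β and 10.4, 17.4 and 16.7 with PBSL, against 0.537, 0.509 and 0.361 untreated. IL1RN rose by 0.82 log2 units (SE 0.16, adjusted p = 0.00542), and PBSL 1 lay close above the IL-1β range. The other higher member was IL36G, an IL-1 family cytokine, at a log2 change of 0.39 (adjusted p = 0.0463), a call lost under 11 of its alternatives with an adjusted p of up to 0.313. IL32, a cytokine that TNF and interferon induce, read 171, 167 and 149.7 with IL-1β and 127, 87.7 and 86.01 with PBSL (log2 change -0.71, SE 0.12, adjusted p = 0.00405). IL11, a cytokine of the IL-6 family, read 109, 106 and 113 with IL-1β and 76.4, 70.4 and 62.1 with PBSL (log2 change -0.65, adjusted p = 0.00261). IL6 itself, the main inducer of the acute phase, read 43.3, 43.8 and 46.6 with IL-1β and 37.4, 23.6 and 30.4 with PBSL. IL6 had a log2 change of -0.56 (adjusted p = 0.0175), but it was no longer called with no filter, with a pseudocount of 0.1 or in the fits without IL-1β 2, IL-1β 3 or PBSL 2, at an adjusted p of up to 0.313. IL1B, which encodes the added cytokine, did not pass the test, with 108, 111 and 115 with IL-1β and 117, 143 and 134 with PBSL (log2 change 0.23, adjusted p = 0.125).

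Of 17 tested receptors and adaptors of the IL-1 and IL-6 families 1 was lower and none higher, with none lower without PBSL 2 or any 1 IL-1β library, 2 lower without PBSL 3 and 1 higher without PBSL 1 or PBSL 3. Of 24 tested NF-κB subunits, regulators and targets 2 were higher and 3 lower, near the 22.5% called over all tested genes, with a median of -0.06, and without PBSL 1 there were 5 lower. CD83, a surface protein of activated cells, and TRAF2, an adaptor of TNF receptors, were the higher members, and without IL-1β 1 or IL-1β 2 only TRAF2 was called. NFKBIA, the inhibitor that NF-κB induces against itself, read 120.04, 123 and 123 with IL-1β and 122, 139 and 122 with PBSL (log2 change 0.06, adjusted p = 0.484). SOD2, the mitochondrial superoxide dismutase and a strong NF-κB target, read 1334, 1335 and 1307 with IL-1β and 1267, 1218 and 1334 with PBSL (log2 change -0.058, adjusted p = 0.418). BIRC3, an inhibitor of apoptosis, was among the lower members, with 14.3, 14.9 and 14.9 with IL-1β and 10.9, 10.49 and 12.2 with PBSL (log2 change -0.36, adjusted p = 0.00885), a call lost with a pseudocount of 0.1 (adjusted p = 0.057, the highest of its alternatives). PTGS2, the inducible cyclooxygenase, did not pass the test, with 7.92, 7.42 and 7.94 with IL-1β and 7.75, 7.89 and 10.2 with PBSL (log2 change 0.13, adjusted p = 0.422). Of 9 tested genes of prostaglandin and nitric oxide synthesis 1 was higher and 2 were lower, and each fit that left out 1 library had at most 1 lower.

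Complement genes are made by many mesenchymal cells. Of 13 tested complement genes 6 were lower and none was higher, against 11% lower over all tested genes, with a median of -0.32. CFB, the protease of the alternative pathway, read 14.6, 11.8 and 11.6 with IL-1β and 7.99, 3.61 and 6.08 with PBSL (log2 change -1.03, SE 0.22, adjusted p = 0.00858). C1S, a protease of the classical pathway, read 87.2, 83.8 and 87.7 with IL-1β and 63.3, 45.5 and 50.1 with PBSL (log2 change -0.71, adjusted p = 0.00312). PBSL 2 was the lowest library in CFB, and the groups did not overlap in CFB or C1S.

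Matrix metalloproteinases went both ways. Of 32 listed metalloproteinases and aggrecanases 26 were tested, and 2 were higher and 10 lower, against 11.5% and 11% of all tested genes. MMP3, the stromelysin that opens other proenzymes and cuts proteoglycans, had the highest values of the list. It read 1203, 1170.2 and 1211 with IL-1β and 932, 912 and 1020.3 with PBSL and lies on chromosome 11 from 102835801 to 102843803. MMP3 fell by 0.32 on the log2 scale (SE 0.055, adjusted p = 0.00405), and PBSL 1 lay between PBSL 2 and PBSL 3. MMP13, the collagenase that cuts type II collagen, read 84.4, 66.1 and 78.003 with IL-1β and 55.2, 34.1 and 51.9 with PBSL (log2 change -0.71, SE 0.16, adjusted p = 0.0101). MMP12, the macrophage elastase, read 80.9, 81.9 and 80.5 with IL-1β and 58.7, 42.6 and 50.4 with PBSL (log2 change -0.68, adjusted p = 0.0036). MMP7, matrilysin, read 7.54, 6.801 and 6.79 with IL-1β and 3.22, 2.04 and 2.71 with PBSL, against 0.604, 0.746 and 0.78 untreated (log2 change -1.15, SE 0.11, adjusted p = 0.000839). In MMP3, MMP13, MMP12 and MMP7 the groups did not overlap.

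MMP1, the interstitial collagenase, went the other way. It read 137, 127 and 129.7 with IL-1β and 147, 200.3 and 203 with PBSL, rose by 0.47 log2 units (SE 0.10, adjusted p = 0.00924) and showed 26.1% of the difference of PBSL 2 and 3 in PBSL 1. MMP9, a gelatinase, read 8.42, 10.1 and 9.84 with IL-1β and 10.8, 20.6 and 13.9 with PBSL (log2 change 0.58, adjusted p = 0.0322). That call was lost under 7 of its alternatives, which left out an IL-1β library, PBSL 2, PBSL 3 or the untreated group or used no filter, at an adjusted p of up to 0.11. The aggrecanases ADAMTS4 and ADAMTS5 stayed below the filter, with highest values of 0.024 and 0.344. Of 15 tested protease inhibitors and plasminogen activators 2 were higher and 7 lower, against 11.5% and 11% of all tested genes. The lower count was 3 without any 1 IL-1β library and 4 without PBSL 2, and at most 1 was higher without any 1 IL-1β library, PBSL 2 or PBSL 3. TIMP3, a matrix-bound inhibitor of metalloproteinases, read 175, 177 and 174 with IL-1β and 146, 115 and 122 with PBSL (log2 change -0.46, adjusted p = 0.00387).

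Collagens and the enzymes that build them fell together. Of 22 tested collagens 15 were lower and none was higher, against 11% lower over all tested genes. The median log2 change was -0.34, and without PBSL 1 there were 16 lower and 1 higher. Of 20 tested collagen-modifying enzymes 15 were lower and none was higher, set against the same 11%, with a median of -0.37. The median difference of the collagens was -0.27 in PBSL 1, -0.33 in PBSL 2 and -0.46 in PBSL 3. COL1A2, a chain of the main fibrillar collagen, lies on chromosome 7 from 94394561 to 94431232 and read 785, 796 and 779 with IL-1β and 568, 407 and 410.1 with PBSL. It fell by 0.79 on the log2 scale (SE 0.10, adjusted p = 0.00264). COL1A1, its partner chain, read 1549, 1579 and 1559.9 with IL-1β and 1171, 845 and 853 with PBSL (log2 change -0.73, adjusted p = 0.00291). Both chains were under the IL-1β range in PBSL 1 and lower again, at close values, in PBSL 2 and 3. LOX, which cross-links collagen, had a log2 change of -0.60 (adjusted p = 0.0036) and BMP1, which cuts the procollagen tail, one of -0.52 (adjusted p = 0.00329).

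Of 30 tested matrix glycoproteins and small proteoglycans 18 were lower and none was higher, against 11% lower over all tested genes. FN1, fibronectin, read 1339, 1348 and 1322 with IL-1β and 984, 882 and 926 with PBSL (log2 change -0.52, SE 0.056, adjusted p = 0.00127), and PBSL 1 showed 78.2% of the difference of the other PBSL libraries. TNC, tenascin C, had a log2 change of -0.48 (adjusted p = 0.00282) and HSPG2, the basement membrane proteoglycan perlecan, one of -0.77 (adjusted p = 0.00312). Cartilage genes were mostly too low to test: 8 of 24 passed the filter, 2 were lower without PBSL 1 or untreated 2, and 1 was lower over all 9 libraries, COL11A1, a minor cartilage collagen, at a log2 change of -0.48 (adjusted p = 0.00697). ACAN, the cartilage proteoglycan aggrecan, did not pass the test, with 1.45, 1.61 and 1.21 in the IL-1β and 1.44, 2.15 and 1.81 in the PBSL libraries (log2 change 0.20, adjusted p = 0.186). SOX9, the master regulator of cartilage, read 8.604, 9.23 and 8.58 with IL-1β and 9.19, 9.57 and 8.003 with PBSL (log2 change 0.014, adjusted p = 0.914), and the sign of its change differed between alternatives.

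Contractile genes of the smooth-muscle type were lower too. Of 22 tested genes 17 were lower and none was higher, against 11% lower over all tested genes, with a median of -0.37. The median difference was -0.18 in PBSL 1, -0.50 in PBSL 2 and -0.47 in PBSL 3. CNN1, calponin, lies on chromosome 19 from 11538717 to 11550323 and read 31.5, 29.2 and 29.6 with IL-1β and 19.6, 8.44 and 9.02 with PBSL (log2 change -1.31, SE 0.22, adjusted p = 0.00399). ACTA2, smooth-muscle α-actin, read 59.5, 58.7 and 60.3 with IL-1β and 38.7, 26.6 and 28.04 with PBSL (log2 change -0.93, adjusted p = 0.00212). ACTG2, smooth-muscle γ-actin, read 6.01, 5.21 and 6.67 with IL-1β and 3.32, 1.89 and 2.04 with PBSL (log2 change -1.05, adjusted p = 0.00261). In all 3 genes PBSL 2 and PBSL 3 were close to each other, PBSL 1 was higher than both, and every PBSL library lay under the IL-1β range. Many such genes carry CArG boxes, to which serum response factor binds. The box was searched only in its strict form, CC, then 6 bases that are each A or T, then GG. Such a match lay within 250 bases before the start in 6 of the 21 contractile genes with a RefSeq promoter (28.6%). It lay in 1.14% of all promoters and 2.55% of those of genes called lower. CNN1 and ACTA2 held no strict match in these 250 bases, and boxes that depart from the strict form were not searched. The stretch before ACTG2 is shown because it holds 2 strict matches, in capitals, on the plus strand of GRCh38.p14.
ACTG2, chr2:73892878-73892964: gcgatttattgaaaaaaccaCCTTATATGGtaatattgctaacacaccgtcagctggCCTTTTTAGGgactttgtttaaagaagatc

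The CCN genes and other targets of YAP, a coactivator that responds to cell tension, had 12 of 20 tested members lower and 1 higher. Over all tested genes 11% were lower and 11.5% higher, and without PBSL 1 the list had 3 higher. CTGF, a matricellular growth factor, read 15.7, 16.8 and 16.4 with IL-1β and 12.5, 10.3 and 9.58 with PBSL (log2 change -0.56, adjusted p = 0.00312). CYR61, a related matricellular protein, had a log2 change of -0.59 (adjusted p = 0.00405) and EDN1, endothelin, one of -0.81 (adjusted p = 0.00387). The member that rose over all 9 libraries was NOV, a CCN family gene also called CCN3, with 4.27, 4.26 and 4.08 in the IL-1β and 6.33, 7.86 and 7.26 in the PBSL libraries (log2 change 0.64, SE 0.077, adjusted p = 0.00261). NOV had no overlap between the groups.

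In the TGF-β, BMP and activin list 11 of 25 tested genes were lower and 1 was higher. This compares with 11% lower and 11.5% higher over all tested genes, and the median of the list was -0.20. The lower count was 7 without IL-1β 1 or IL-1β 2 and 6 without IL-1β 3. The higher count was 2 without PBSL 1 and 0 without IL-1β 2, IL-1β 3, PBSL 2 or PBSL 3. ID2, an inhibitor of helix-loop-helix factors that BMP induces, read 39.1, 42.3 and 38.1 with IL-1β and 27.8, 28.5 and 28.1 with PBSL (log2 change -0.49, SE 0.061, adjusted p = 0.00261). The PBSL libraries of ID2 lay close together. ID3, a relative with the same role, had a log2 change of -0.39 (adjusted p = 0.00309), and PBSL 1 reached 82.4% of the difference of the others. TGFB3, a ligand, had a log2 change of -0.78 (adjusted p = 0.00324).

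Of 21 tested growth and angiogenic factors 3 were higher and 10 lower, against 11.5% and 11% of all tested genes. The lower count was 6 without IL-1β 1, IL-1β 3 or PBSL 3 and 5 without IL-1β 2. ESM1, a proteoglycan that endothelium secretes, had the largest rise of all called genes, from 3.13, 2.704 and 2.69 with IL-1β to 3.85, 9.73 and 6.85 with PBSL. ESM1 rose by 0.95 log2 units (SE 0.22, adjusted p = 0.0114), mostly through PBSL 2 and PBSL 3, since PBSL 1 reached 26.8% of their difference. STC1, a secreted regulator of calcium and phosphate, read 10.3, 10.6 and 11.4 with IL-1β and 14.4, 23.9 and 21.3 with PBSL (log2 change 0.80, adjusted p = 0.00405). IGFBP3, which binds insulin-like growth factors, fell, with 311, 321 and 327 with IL-1β and 238, 161 and 185 with PBSL (log2 change -0.73, adjusted p = 0.00309).

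Among feedback genes of the ERK pathway 5 of 14 tested were higher and 1 was lower, against 11.5% and 11% of all tested genes. The higher count was 2 without any 1 IL-1β library, PBSL 2 or PBSL 3. PHLDA1, an early ERK target, had a log2 change of 0.33 (adjusted p = 0.00918) and SPRY2, which damps receptor tyrosine kinases, one of 0.43 (adjusted p = 0.0116). DUSP1, a phosphatase of stress kinases, was the member that fell, with 29.7, 29.3 and 27.1 in the IL-1β and 20.7, 15.8 and 15.01 in the PBSL libraries (log2 change -0.72, SE 0.10, adjusted p = 0.00282). Of 15 tested AP-1 and immediate early genes 1 was higher and 3 lower, near the 22.5% called over all tested genes. FOSL1, an AP-1 subunit, was higher, with 72.2, 76.2 and 74.2 with IL-1β and 89.6, 113 and 106 with PBSL (log2 change 0.46, adjusted p = 0.00389). EGR1, an immediate early zinc finger factor, was lower, with 2.46, 2.36 and 2.51 with IL-1β and 1.81, 0.751 and 1.01 with PBSL (log2 change -0.68, adjusted p = 0.00825), and PBSL 1 showed 33.8% of the difference of the others.

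Genes of DNA replication and of the G1/S step rose together. Of 47 tested genes 45 were higher and none was lower, against 11.5% higher among all tested genes, and without PBSL 1 all 47 were higher. The median log2 change was 0.55, and the median difference was 0.31 in PBSL 1, 0.75 in PBSL 2 and 0.59 in PBSL 3. The expression values of the 47 genes summed to 1022 to 1029 in the IL-1β libraries and to 1283 to 1675 in the PBSL libraries. PCNA, the sliding clamp of DNA polymerase, lies on chromosome 20 from 5114953 to 5126626 and read 84.4, 79.9 and 79.4 with IL-1β and 108, 145 and 138 with PBSL, against 118, 110.02 and 98.8 untreated. PCNA rose by 0.66 log2 units (SE 0.10, adjusted p = 0.00312), or 0.79 without PBSL 1. TYMS, thymidylate synthase, read 92.7, 94.1 and 96.1 with IL-1β and 127, 159 and 164 with PBSL (log2 change 0.65, adjusted p = 0.00261). RRM2, the regulated subunit of ribonucleotide reductase, read 88.8, 83.03 and 91.9 with IL-1β and 119, 157 and 155 with PBSL (log2 change 0.69, adjusted p = 0.00312). FEN1, the nuclease that trims Okazaki fragments, read 35.8, 36.8 and 34.9 with IL-1β and 48.4, 72.1 and 59.7 with PBSL (log2 change 0.71, adjusted p = 0.00324). The groups did not overlap in PCNA, TYMS, RRM2 or FEN1. CCND1, cyclin D1, which starts the passage through G1, read 36.1, 36.4 and 34.2 with IL-1β and 40.9, 71.99 and 57.5 with PBSL (log2 change 0.62, adjusted p = 0.0118).

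Genes of mitosis were higher too. Of 52 listed genes 43 had a value in the table. All 43 were tested and called higher, against 11.5% higher among all tested genes, with a median of 0.47. The median difference was 0.30 in PBSL 1, 0.52 in PBSL 2 and 0.55 in PBSL 3. CCNB1, the cyclin that triggers mitosis, lies on chromosome 5 from 69167010 to 69178245 and read 159, 157 and 149 with IL-1β and 204, 240.2 and 244 with PBSL, against 154, 142 and 133 untreated (log2 change 0.56, SE 0.075, adjusted p = 0.00268). PLK1, a mitotic kinase, read 74.8, 75.03 and 77.1 with IL-1β and 100.5, 123 and 109 with PBSL (log2 change 0.54, adjusted p = 0.00281). CDC20, which activates the anaphase-promoting complex, read 117, 119 and 114 with IL-1β and 161, 186 and 156 with PBSL (log2 change 0.52, adjusted p = 0.00282), and PBSL 1 reached 84.7% of the difference of the others. FOXM1, the transcription factor of this set, had a log2 change of 0.45 (adjusted p = 0.00261). No library overlapped between the groups in any of the 43 genes, set against 41.8% of all tested genes without overlap.

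Promoter stretches of both lists are shown because each list held a motif at the shares given next. An E2F motif was searched as TTTCCCGC or TTTGGCGC, and the cell-cycle homology region, which the DREAM complex is known to bind, as TTTGAA, on both strands of the same 250 bases. The E2F motif was in 15 of the 40 G1/S genes with a RefSeq promoter (37.5%) and in 3 of the 33 mitotic genes (9.09%), against 1.96% of all promoters. It was in 5.58% of the promoters of genes called higher and 2.45% of those called lower. TTTGAA was in 13 of the 33 mitotic genes (39.4%) and in 1 of the 40 G1/S genes (2.5%), against 13.6% of all promoters and 8.26% of those of tested genes. Capitals mark the matches on the strand of the gene in GRCh38.p14.
PCNA, E2F motif, chr20:5126654-5126701, minus strand: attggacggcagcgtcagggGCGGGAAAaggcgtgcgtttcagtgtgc
MCM3, E2F motif, chr6:52284889-52284936, minus strand: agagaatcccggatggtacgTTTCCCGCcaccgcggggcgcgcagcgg
CCNB2, TTTGAA, chr15:59105097-59105142, plus strand: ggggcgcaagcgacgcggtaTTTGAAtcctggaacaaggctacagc
PLK1, TTTGAA, chr16:23678840-23678885, plus strand: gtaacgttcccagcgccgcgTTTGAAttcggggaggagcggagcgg
MCM3, a subunit of the replicative helicase, had a log2 change of 0.55 (adjusted p = 0.00386) and CCNB2, a second mitotic cyclin, one of 0.44 (adjusted p = 0.00291).

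Histone genes split. Of 18 tested histones 3 were higher and 5 lower, against 11.5% and 11% of all tested genes, with 3 lower without IL-1β 3. HIST2H2BE, a histone H2B gene whose message can be polyadenylated, read 30.8, 30.2 and 32.5 with IL-1β and 21.2, 13.9 and 15.8 with PBSL (log2 change -0.86, SE 0.12, adjusted p = 0.00268). H2AFZ, the replacement histone H2A.Z, rose, with 498, 489.6 and 470.2 with IL-1β and 603, 747 and 627 with PBSL (log2 change 0.43, adjusted p = 0.00437). The libraries were made from mRNA, and how reads of near-identical histone copies were counted is not stated. Of 27 tested p53 targets and G1 checkpoint genes 1 was higher and 6 lower, near the 22.5% called over all tested genes. Their median was -0.05, and none was higher without untreated 1, any 1 IL-1β library, PBSL 2 or PBSL 3. CDKN2B, an inhibitor of the cyclin D kinases, read 18.8, 19.05 and 18.8 with IL-1β and 15.1, 10.6 and 11.99 with PBSL (log2 change -0.57, adjusted p = 0.00405). Of 24 tested apoptosis regulators 2 were higher and 2 lower, against 22.5% called over all tested genes. There were 6 lower without PBSL 1 and 1 higher without any 1 IL-1β library, PBSL 2 or PBSL 3. BIRC5, survivin, which also acts at the mitotic spindle, was higher (values 77.7, 71.9 and 80.7 with IL-1β and 99.4, 128 and 129 with PBSL, log2 change 0.62, adjusted p = 0.00324).

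The amino-acid response was lower. ATF4 is the factor that cells make when amino acids run short, and its targets include amino-acid synthesis and transport and the tRNA synthetases. Of 31 tested genes of that list 20 were lower and 1 was higher, against 11% and 11.5% of all tested genes. The median of the list was -0.37. The median difference was -0.19 in PBSL 1, -0.42 in PBSL 2 and -0.27 in PBSL 3. ASNS, asparagine synthetase, lies on chromosome 7 from 97852118 to 97872542 and read 81.98, 85.9 and 85.002 with IL-1β and 64.8, 42.6 and 50.01 with PBSL, against 64.99, 60.6 and 63.5 untreated (log2 change -0.70, SE 0.11, adjusted p = 0.0036). ALDH1L2, a mitochondrial folate enzyme, read 6.96, 7.47 and 7.41 with IL-1β and 5.05, 3.25 and 3.97 with PBSL (log2 change -0.72, adjusted p = 0.0036). SLC7A5, a transporter of large amino acids, read 20.7, 20.9 and 20.4 with IL-1β and 16.6, 12.5 and 12.3 with PBSL (log2 change -0.56, adjusted p = 0.00405). WARS, the tryptophanyl-tRNA synthetase, which interferon also induces, had a log2 change of -0.55 (adjusted p = 0.00417). In ASNS, ALDH1L2, SLC7A5 and WARS the groups did not overlap. ATF4 itself read 274, 281 and 276 with IL-1β and 239.9, 191 and 191 with PBSL (log2 change -0.43, adjusted p = 0.00526), and the member that rose was ATF5, a related factor, at a log2 change of 0.34 (adjusted p = 0.00592).

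Chaperones of the endoplasmic reticulum were mostly lower where called, and heat shock chaperones mostly higher. Of 24 tested genes of the unfolded protein response 12 were lower and none was higher, against 11% lower over all tested genes. Their median was -0.15. The lower count was 4 without IL-1β 1 or IL-1β 2, 3 without IL-1β 3, 5 without PBSL 2 and 7 with a replicate block. HSPA5, the main chaperone of the endoplasmic reticulum, read 356, 357 and 362 with IL-1β and 312, 249.98 and 266 with PBSL (log2 change -0.38, SE 0.069, adjusted p = 0.00456). Of 24 tested heat shock chaperones 14 were higher and 3 lower, against 11.5% and 11% of all tested genes. The median of this list was 0.24, and 9 were higher without any 1 IL-1β library or PBSL 2. HSPE1, the lid of the mitochondrial chaperonin, read 222, 211 and 226 with IL-1β and 286, 353 and 352 with PBSL (log2 change 0.58, SE 0.074, adjusted p = 0.00261). HSPD1, its barrel, read 166, 163 and 164 with IL-1β and 199, 243 and 246 with PBSL (log2 change 0.47, adjusted p = 0.00396), and HSP90AA1, a cytosolic chaperone, had a log2 change of 0.39 (adjusted p = 0.00417). The 3 members that fell were DNAJB4, a co-chaperone, at a log2 change of -0.49, and the small heat shock proteins HSPB1 at -0.40 and CRYAB at -0.58. The HSPB1 call was lost under 5 of its alternatives, at an adjusted p of up to 0.0705.

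Oxidant, metal and xenobiotic responses were mixed. Of 30 tested NRF2 targets and antioxidant enzymes 10 were lower and 1 was higher, against 11% and 11.5% of all tested genes. The median of this list was -0.13. The lower count was 5 without IL-1β 1, 4 without IL-1β 2, IL-1β 3 or PBSL 2, and 6 with no filter. The higher count was 2 without PBSL 1 and 0 without IL-1β 2, IL-1β 3, PBSL 2 or PBSL 3. TXNRD1, thioredoxin reductase, read 274, 269 and 274 with IL-1β and 238, 212 and 229.5 with PBSL (log2 change -0.27, SE 0.05, adjusted p = 0.00504). HMOX1, haem oxygenase, did not pass the test, with 88.1, 90.5 and 88.8 with IL-1β and 94.4, 85.9 and 81.7 with PBSL (log2 change -0.031, adjusted p = 0.72). Of 9 tested metallothioneins and zinc transporters 1 was higher and 4 lower, against 11.5% and 11% of all tested genes. There were 2 lower without IL-1β 3 and none higher without IL-1β 2 or PBSL 2. MT1G read 10.4, 11.5 and 13.1 with IL-1β and 8.29, 3.697 and 3.999 with PBSL (log2 change -1.07, adjusted p = 0.00523), and MT1X had a log2 change of -0.50 (adjusted p = 0.00616). Metallothioneins bind zinc and copper, and how reads of their near-identical copies were counted is not stated. CYP1A1, the classical target of the aryl hydrocarbon receptor, rose, with 5.93, 5.74 and 5.57 in the IL-1β and 7.6, 8.24 and 7.15 in the PBSL libraries (log2 change 0.36, adjusted p = 0.0072), and PBSL 1 reached 96.5% of the difference of the others. Of 6 tested genes of that receptor's list 1 was higher and 1 lower, and no gene was lower without PBSL 2 or any 1 IL-1β library. Of 8 tested glucocorticoid-responsive genes 1 was higher and 1 lower, near the 22.5% called over all tested genes. There were 3 lower without PBSL 1 and none higher without PBSL 2, PBSL 3 or any 1 IL-1β library.

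Among metabolic lists, set against 11.5% higher and 11% lower over all tested genes, the counts were these. Of 30 tested genes of glycolysis and hypoxia 5 were lower and none was higher, with 3 lower without IL-1β 2 and 8 without PBSL 1. Of 49 tested subunits of oxidative phosphorylation 9 were higher and none was lower, with a median of 0.07, and 3 or fewer were higher without any 1 IL-1β library or PBSL 2. Cholesterol genes had 1 higher and 3 lower of 26, and fatty acid genes had 2 higher and 1 lower of 19. The 3 lower cholesterol genes became 6 without PBSL 1 and at most 1 without any other single IL-1β or PBSL library, and the higher fatty acid genes became 1 without any of those other libraries. The lower fatty acid gene became 4 without PBSL 1 and none without any other single IL-1β or PBSL library or without untreated 1 or 2, and the higher cholesterol gene was lost without IL-1β 2, IL-1β 3 or PBSL 2. ELOVL6, which lengthens fatty acids, had the smallest p of these, with 8.96, 9.06 and 9.28 in the IL-1β and 13.2, 14.4 and 15.1 in the PBSL libraries (log2 change 0.59, SE 0.063, adjusted p = 0.00127). SREBF2, the sterol-sensing factor, had a log2 change of -0.25 (adjusted p = 0.0223), a call lost without any 1 IL-1β library, PBSL 2 or PBSL 3, at an adjusted p of up to 0.0891.

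Among genes of protein synthesis, those that build ribosomes had many members called. Of 39 tested nucleolar and MYC-linked genes 21 were higher and none was lower, with a median of 0.22, and without PBSL 1 there were 29 higher. The count was 8 without IL-1β 1 or IL-1β 3, 5 without IL-1β 2 or PBSL 2, 12 without PBSL 3 and 13 with no filter. TCOF1, which drives transcription of ribosomal RNA, read 15.8, 15.9 and 16.05 with IL-1β and 19.6, 21.6 and 19.4 with PBSL (log2 change 0.33, SE 0.064, adjusted p = 0.00598). FBL, the methylase of ribosomal RNA, had a log2 change of 0.39 (adjusted p = 0.00614). Mitochondrial ribosomal proteins had 14 of 36 higher and none lower, and cytosolic ribosomal proteins 5 of 46 higher and none lower. Over all tested genes 11.5% were higher, and the cytosolic share lay near that. Whether the mitochondrial and cytosolic shares differ was not tested. The mitochondrial count was 6 without IL-1β 1 or IL-1β 2, 5 without IL-1β 3, 7 without PBSL 2 and 9 with a replicate block. The cytosolic count was 8 without PBSL 1, at most 1 without any other single IL-1β or PBSL library, and 1 with the median-ratio scaling. Proteasome subunits had 4 of 31 higher, also near the share over all tested genes. The proteasome count was 14 without PBSL 1 and at most 1 without PBSL 2 or any 1 IL-1β library. Of 24 tested lysosomal and autophagy genes 8 were lower and none was higher, against 11% lower over all tested genes. The lower count was 3 or 4 without any 1 IL-1β library, PBSL 2 or PBSL 3. GABARAPL1, an autophagosome protein, was among the lower members at a log2 change of -0.57 (adjusted p = 0.00453).

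**Figure D4:**
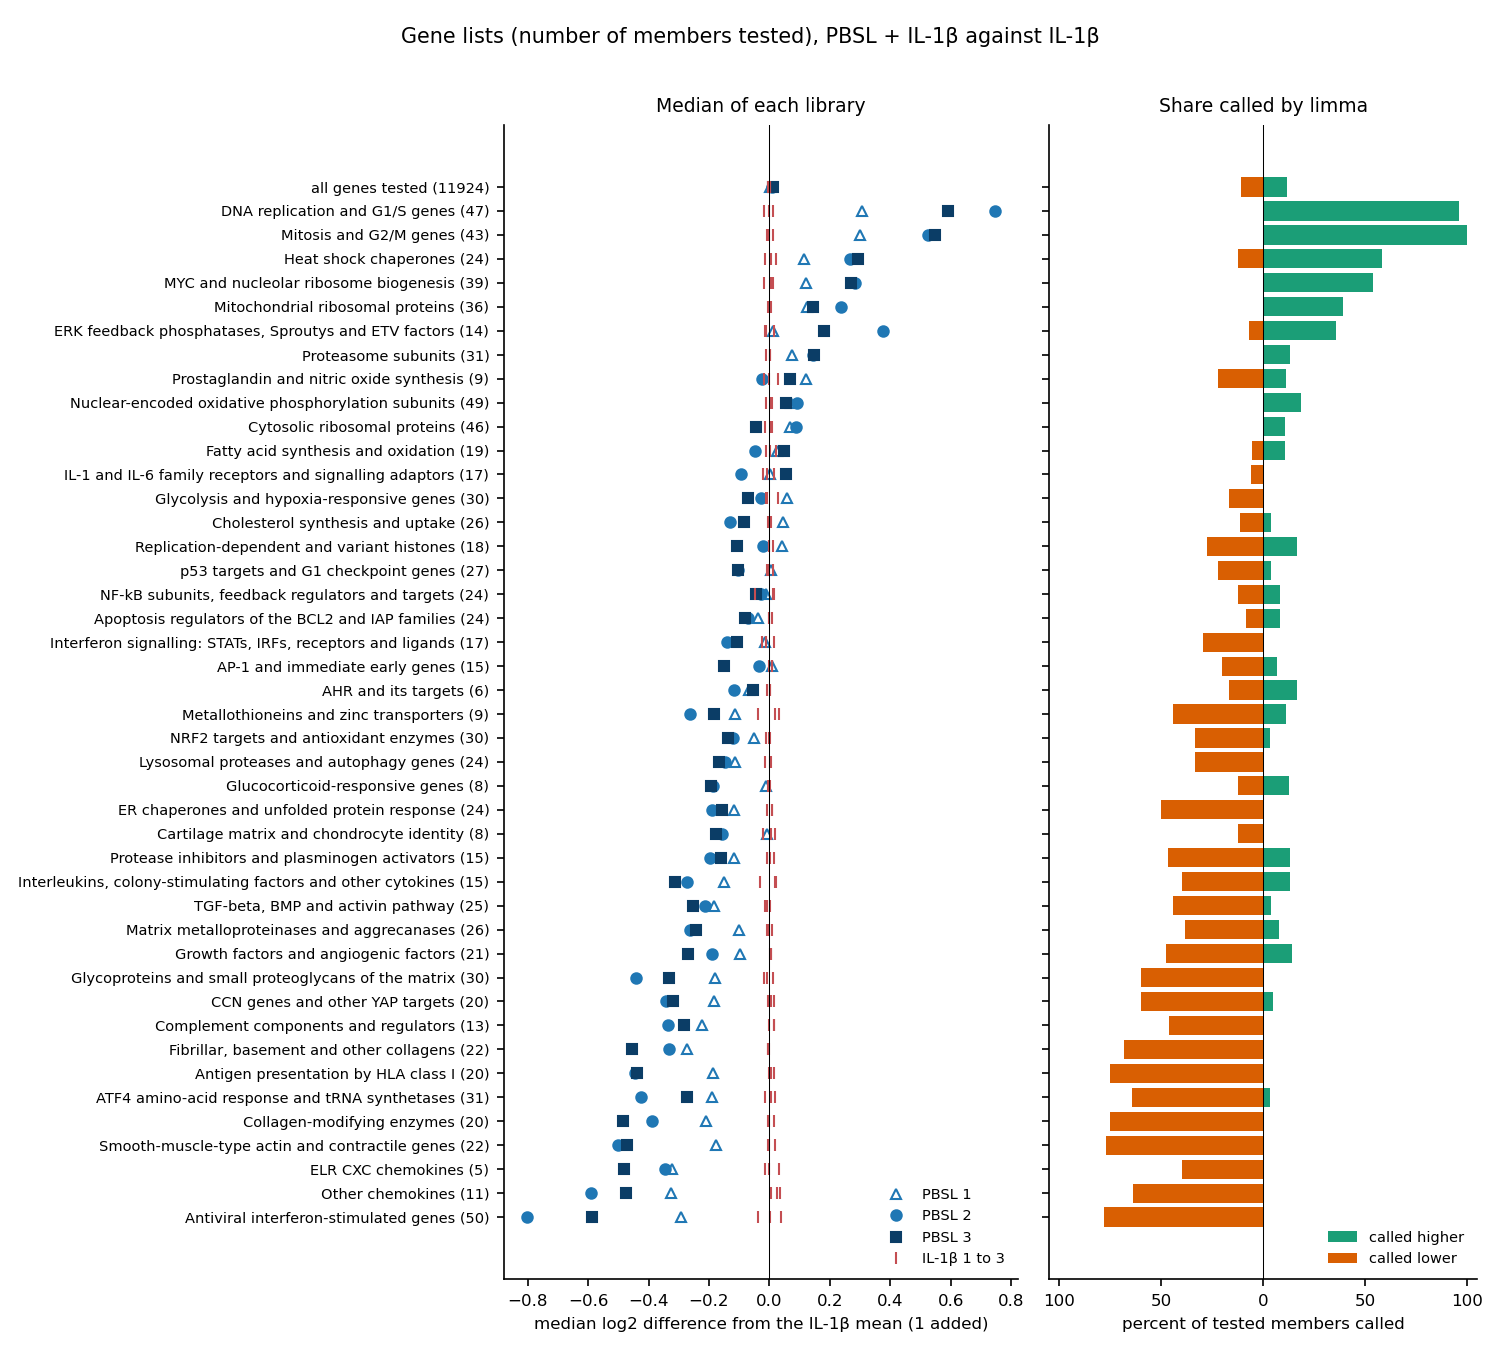
For each gene list, the left panel gives the median log2 difference of its tested genes in each PBSL library from the IL-1β mean, and the right panel the percentage of tested genes called higher or lower, with the share over all tested genes beside them. PBSL 1 (median -0.29) lies nearer to 0 than PBSL 2 (-0.80) and PBSL 3 (-0.59) in the antiviral list, and likewise in the G1/S list (0.31, 0.75 and 0.59).

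Outside the lists, the following were among the largest changes of genes whose higher group had a mean of 5 or more. SLCO4A1, an organic anion transporter, read 3.203, 3.91 and 3.64 with IL-1β and 5.45, 9.97 and 7.21 with PBSL (log2 change 0.87, SE 0.15, adjusted p = 0.00413). HMGA1, a chromatin protein of dividing cells, read 58.4, 61.98 and 60.4 with IL-1β and 79.6, 131 and 101 with PBSL (log2 change 0.74, adjusted p = 0.00421). TMEM158, a membrane protein induced by RAS signalling, read 363, 377 and 399 with IL-1β and 491, 763 and 597 with PBSL (log2 change 0.68, adjusted p = 0.00416). In SLCO4A1, HMGA1 and TMEM158 every PBSL library lay above the IL-1β range. EXOG, a mitochondrial nuclease, had a log2 change of 0.86 (adjusted p = 0.0346), but its call was lost under 6 of its alternatives, at an adjusted p of up to 0.137. Downward, OLR1, a scavenger receptor for oxidised lipoprotein, read 8.06, 7.66 and 8.67 with IL-1β and 3.99, 2.03 and 3.26 with PBSL (log2 change -1.19, SE 0.15, adjusted p = 0.00261). CGB5, a chorionic gonadotropin β gene, read 31.3, 29.3 and 33.6 with IL-1β and 16.6, 13.1 and 12.2 with PBSL (log2 change -1.12, adjusted p = 0.000287), against 29.3, 29.9 and 28.9 untreated. How reads shared by the CGB copies were counted is not stated. NPPB, the B-type natriuretic peptide, read 8.43, 8.08 and 8.41 with IL-1β and 6.12, 2.35 and 2.604 with PBSL (log2 change -1.08, adjusted p = 0.0123), and its call was lost without PBSL 2 or PBSL 3, at an adjusted p of up to 0.0562.

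Markers of other cell types gave few tested genes. CD68, a lysosomal protein known as a macrophage marker, was lower at a log2 change of -0.22 (adjusted p = 0.0139), a call that 2 fits lost, those leaving out IL-1β 1 or IL-1β 3, at an adjusted p of up to 0.0584. CD3D, a T-cell receptor subunit, was low and fell from 7.49, 7.28 and 7.48 with IL-1β to 4.49, 5.32 and 4.91 with PBSL (log2 change -0.51, adjusted p = 0.00309). DES, the muscle intermediate filament, read 1.55, 1.37 and 1.36 with IL-1β and 0.851, 0.548 and 0.502 with PBSL (log2 change -0.58, adjusted p = 0.00387). Over the whole lists, the summed values with IL-1β and with PBSL were 100.6 to 104 and 85.9 to 91.6 for the 10 macrophage markers, and 77.4 to 79.4 and 58.2 to 77.7 for the 8 epithelial markers. They were 8.14 to 8.62 and 5.52 to 6.67 for the 7 lymphocyte markers. The part of such markers in the results was not tested. Among 7 tested mesenchymal markers, CD44, a hyaluronan receptor, rose by 0.22 log2 units (adjusted p = 0.0262), a call lost under 7 of its alternatives at an adjusted p of up to 0.10, and PDGFRB, a growth factor receptor, fell by 0.61 log2 units (adjusted p = 0.00387).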

How the data were processed

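RNA of SW1353 cells was sequenced in 9 libraries made with a directional mRNA kit, per the labels' protocols. Trim Galore, STAR, HTSeq and hg38 are named in the submitters' processing notes, without versions or settings. The deposited signal values are not whole numbers, and their lowest values fall with exonic length, so they are taken as normalised by the authors for transcript length and depth. Whether they are FPKM or TPM is not given in the sources used here. Depth is therefore unknown, and no count-based test was run. How reads shared by near-identical genes were handled is not given in the sources used here.

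Genes reaching 1 in 3 or more libraries were tested. The model, fitted in R 4.3.3 by limma 3.58.1 with a mean-dependent variance, took log2(value + 1) of all 9 libraries, with a mean per group, and p-values were adjusted by Benjamini-Hochberg. The 3 groups shared 1 estimate of the spread of each gene, though they spread unequally. The residual SD was 0.094 to 0.106 in the untreated, 0.076 to 0.081 in the IL-1β and 0.117 to 0.131 in the PBSL libraries. The smallest p of an exact permutation test of 3 against 3 is 0.1. The procedure was also run on simulated data, with independent normal noise of the same spread in every group. Such data cannot show how the procedure behaves where the groups spread unequally, as here.

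The 49 gene lists held 1189 entries, of which 1172 had a value in the table and 1026 were tested. The gene lists, the rule and the comparison were chosen with earlier results of these data known. The genes named were chosen by a rule. It took every called gene with a log2 change of at least 1 in size. It also took the 20 largest called changes each way without overlap and with a mean of 5 or more in the higher group. Up to 4 tested members of each list with the smallest p, and a set of inflammatory, cartilage and other response genes, were added whether called or not. ATF4, ATF5, CCL2, CCNB2, CCND1, CD83, CRYAB, HSPB1, IL36G, IRF1, MCM3, MMP9, NFKBIA, SOD2 and TAP1 were named outside that rule, after their values were seen. Alternatives varied the pseudocount, the filter, the scaling, the libraries in the fit, library weights, a replicate block and the variance trend. Positions come from GENCODE 29 and promoters from RefSeq (GRCh38.p14). Of the deposited symbols 27 had become dates, 20 of them tested without a name, and 16 symbols were repeated. Tables and figures used pandas 2.3.3, numpy 2.4.6 and matplotlib 3.10.9 under Python 3.11.15. Some genes are not reported here.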

Additional observations from a re-analysis of the deposited data

How the results depend on the processing

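The count of 2684 called genes ran from 1314 to 3904 when single libraries were left out, with 650 to 2019 higher and 664 to 1885 lower. The low counts came without IL-1β 1 (718 higher, 730 lower), IL-1β 2 (650 and 664), IL-1β 3 (682 and 678) and PBSL 2 (713 and 723), the high count came without PBSL 1, and the count without PBSL 3 was 1851. The fit with a replicate block gave 2131 calls, 1065 higher and 1066 lower. Nothing states whether the replicate numbers pair the libraries. The correlation of deviations between same-numbered IL-1β and PBSL libraries was -0.081, 0.045 and 0.068. With 3 libraries in a group, such values cannot show whether libraries were made in pairs. The alternatives that kept all IL-1β and PBSL libraries stayed within 1.5 times the count, from 2027 with no filter to 2681 with the median-ratio scaling. That scaling gave 1164 higher and 1517 lower. The number past 1 log2 unit moved with the pseudocount as well as with single libraries: 0 higher and 18 lower became 3 and 45 at 0.1. A count-based test was not run because the values are not counts.

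Over 3955 alternatives of named genes, 3689 kept the direction and the side of the threshold, 236 lost the call, 23 gained one and 7 changed sign. The sign changes were in genes that were not called. SOX9 turned to -0.0050 with the median-ratio scaling, -0.00018 without IL-1β 1, -0.0023 without IL-1β 3, -0.0068 without PBSL 1 and -0.033 without PBSL 2. FCER1G turned to -0.0048 and HMOX1 to 0.015 without PBSL 3. Over the fits leaving out 1 library, the range was -0.033 to 0.083 for SOX9, -0.0048 to 0.24 for FCER1G and -0.088 to 0.015 for HMOX1. Depth is unknown, so how far low genes are limited by counting could not be given.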

Other observations

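Selenoproteins, named here after their values were seen, were not among the gene lists as a group. SELENOW, a small redox protein of muscle and other tissues, read 179, 178 and 173 with IL-1β and 107, 102 and 80.6 with PBSL. SELENOW fell by 0.87 on the log2 scale (SE 0.085, adjusted p = 0.000839), without overlap, and PBSL 1 was already far under the IL-1β range. SELENOM, a redox protein of the endoplasmic reticulum, read 261, 259 and 259.6 with IL-1β and 214, 185 and 149 with PBSL (log2 change -0.52, adjusted p = 0.00585). GPX4, which reduces lipid peroxides, read 482, 517 and 493 with IL-1β and 460.2, 391 and 345 with PBSL (log2 change -0.33, adjusted p = 0.0206), and SELENOP, a secreted selenium carrier, had a log2 change of -0.38 (adjusted p = 0.0259). SELENOH (log2 change -0.067, adjusted p = 0.578), SELENOK (log2 change 0.085, adjusted p = 0.443), GPX3 (log2 change -0.04, adjusted p = 0.794) and MSRB1 (log2 change -0.13, adjusted p = 0.285) did not pass the test.

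Some single genes lay outside the lists and were also chosen after their values were seen. HHIPL2, a relative of the hedgehog-interacting protein, read 4.83, 4.71 and 5.104 with IL-1β and 2.35, 1.92 and 2.09 with PBSL (log2 change -0.92, adjusted p = 0.00127). IL21R, the receptor of interleukin-21, read 3.13, 3.74 and 3.36 with IL-1β and 1.91, 1.68 and 1.79 with PBSL (log2 change -0.66, adjusted p = 0.00261). PTCD3, a protein of mitochondrial translation, read 6.54, 7.06 and 7.24 with IL-1β and 12.3, 7.697 and 16.02 with PBSL (log2 change 0.66, adjusted p = 0.0216). In PTCD3, unlike most called genes, PBSL 2 was the library nearest to IL-1β and PBSL 1 lay far above it, and the call was lost under 5 of its alternatives, at an adjusted p of up to 0.0701.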
